A study of Mus musculus with 12 samples.

Results

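Nfe2l2 encodes NRF2, the transcription factor that switches on antioxidant and detoxification genes, and it is described here with 8 genes whose products control it, pair with it or compete with it: Keap1, Cul3, Sqstm1, Mafg, Mafk, Maff, Bach1 and Nfe2l1. These 9 genes were found by symbol among 25861 genes in the table of RNA sequencing read counts, and all 9 were among the 17025 genes with enough counts to be tested. The set was chosen by the Nfe2l2 counts themselves, which stood above control with 1 hairpin against Cldn7 and below control with the other, so the Nfe2l2 values are given as a description with no test, and tests are given for the other 8 genes.

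The samples were organoids, small clumps of tumour tissue grown in gel, taken fresh from the primary tumours of MMTV-Neu mice. In this model the Neu (Erbb2) oncogene is under the promoter of the mouse mammary tumour virus, which is active in mammary epithelium. The groups, of 4 libraries each, numbered 1 to 4, differed in the lentivirus they received: sh2Cldn7 (hairpin 2) and sh1Cldn7 (hairpin 1), each a short hairpin RNA against Cldn7, which encodes the tight junction protein claudin 7, and shControl (control), a non-targeting hairpin in organoids labelled WT. All groups carried the Neu transgene, had virus at a multiplicity of infection of 20, puromycin at 3 µg/ml for 3 days and 2.5 nM FGF2, and spent 5 days in collagen I. The stated question was what Cldn7 does in invasion and metastasis. The labels do not say whether replicates came from separate animals, and the spread behind each p-value is that of these libraries, which may be technical only.

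NRF2 is made constantly and destroyed almost as fast in unstressed cells. KEAP1, a sensor with reactive cysteines, holds NRF2 on the ubiquitin ligase built on CUL3, and the proteasome then degrades it. Electrophiles, oxidants or the autophagy receptor p62, encoded by Sqstm1, release NRF2, which enters the nucleus, pairs with a small MAF protein (MAFG, MAFK or MAFF) and binds the antioxidant response element. BACH1, a heme sensor, pairs with the same small MAF proteins and represses many of the same genes, and NRF1, encoded by Nfe2l1, is a relative of NRF2 known for control of proteasome genes. Because much of this control acts on protein, RNA levels do not give the amount of active NRF2.

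The window from 250 bases before to 50 bases after the start of 3 member genes is shown because these are the members the results turn on, and because NRF2 and small MAF genes are themselves known to carry antioxidant response elements. Sequences are RefSeq's, on GRCm38.p6, 5′ to 3′ on the strand of the gene, and capitals mark the core of that element, TGACNNNGC, searched on both strands. The windows are chr2:75704614-75704913 on the minus strand for Nfe2l2, chr5:139791286-139791585 on the plus strand for Mafk and chr9:21239283-21239582 on the minus strand for Keap1.
Nfe2l2: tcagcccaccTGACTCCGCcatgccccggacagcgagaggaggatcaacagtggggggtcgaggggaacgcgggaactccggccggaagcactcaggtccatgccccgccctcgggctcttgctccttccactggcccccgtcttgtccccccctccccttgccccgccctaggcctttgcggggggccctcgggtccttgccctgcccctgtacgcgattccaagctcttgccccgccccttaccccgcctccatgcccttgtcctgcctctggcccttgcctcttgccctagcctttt
Mafk: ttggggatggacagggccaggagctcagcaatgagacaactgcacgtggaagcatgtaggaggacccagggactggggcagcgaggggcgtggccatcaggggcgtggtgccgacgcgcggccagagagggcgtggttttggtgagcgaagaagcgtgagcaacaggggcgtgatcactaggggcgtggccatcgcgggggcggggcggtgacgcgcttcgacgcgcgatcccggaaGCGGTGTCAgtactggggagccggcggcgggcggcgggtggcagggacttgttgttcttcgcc
Keap1: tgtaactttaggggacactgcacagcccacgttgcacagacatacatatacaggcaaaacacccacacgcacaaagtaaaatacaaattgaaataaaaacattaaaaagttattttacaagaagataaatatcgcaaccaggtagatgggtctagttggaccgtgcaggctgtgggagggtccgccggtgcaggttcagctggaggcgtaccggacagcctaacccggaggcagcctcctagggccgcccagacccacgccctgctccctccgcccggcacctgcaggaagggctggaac

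The Nfe2l2 window held 1 match, which began at base -240 relative to the start. The Mafk window held 1 match on the reverse strand, at -13, and no match was found in the Keap1 window. All 9 genes had a window, and 4 of 9 (44.4%) held a match in at least 1 of theirs: Nfe2l2, Mafk, Mafg at -222 on the reverse strand, and Maff at -112. Over all 27025 genes with a window, 3781 (14.0%) held one. With TCA in its open positions the core would also contain TGACTCA, a site of the AP-1 family, and none of the 4 matches did. A match is a run of letters and not a shown site.

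Cldn7, the targeted gene, checked the labels. It averaged 28.4 ± 4.29 CPM (counts scaled to library size and composition) in hairpin 2 libraries, 33.6 ± 7.15 CPM in hairpin 1 libraries and 142 ± 34.6 CPM in control libraries (SD, n = 4 each). The log2 fold change was -2.30 for hairpin 2 and -2.07 for hairpin 1 (edgeR's quasi-likelihood test with Benjamini-Hochberg adjustment, adjusted p = 9.8e-07 and 2.63e-06), and hairpin 2 and hairpin 1 did not pass the test against each other (-0.23, adjusted p = 0.149). Total counts were 34988358 to 44645514 in replicates 1 and 2 and 68581024 to 76329473 in replicates 3 and 4 of the groups. The 10 epithelial markers (Epcam, Cdh1, keratins, Erbb2 and others) were tested in full and summed to 8169 to 9047 CPM with hairpin 2, 7892 to 10140 CPM with hairpin 1 and 7808 to 10690 CPM in control. Much of each sum was Erbb2, the oncogene of this model. It averaged 4327 CPM with hairpin 2, 4181 CPM with hairpin 1 and 4587 CPM in control. Fibroblast, pericyte and leukocyte markers were counted as well, at levels given further on. In such bulk samples, fewer cells of a type and less RNA per cell cannot be told apart.

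Nfe2l2 (NCBI Gene 18024; GRCm38 chr2:75675513-75704641, minus strand) had 74.3, 75.8, 77.4 and 85.0 CPM in hairpin 2 replicates 1 to 4, against 105, 106, 121 and 107 CPM in control replicates 1 to 4. In hairpin 1 replicates 1 to 4 it had 161, 148, 173 and 169 CPM. Every hairpin 2 library lay below every control library and every hairpin 1 library lay above every control library, so that no groups overlapped. The means were 78.1 ± 4.77 CPM with hairpin 2, 163 ± 10.8 CPM with hairpin 1 and 110 ± 7.54 CPM in control (SD, n = 4 each).

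On the log2 scale of the fitted model, the Nfe2l2 difference was -0.49 for hairpin 2 against control, 0.57 for hairpin 1 against control and -1.06 for hairpin 2 against hairpin 1. The hairpin 2 level was thus 71.3% of control and 48.0% of hairpin 1, and the hairpin 1 level was 148% of control. Taken between libraries with the same replicate number, the difference in log2 CPM was -0.49, -0.48, -0.64 and -0.34 for hairpin 2 minus control and 0.62, 0.48, 0.52 and 0.66 for hairpin 1 minus control. It was -1.12, -0.97, -1.16 and -0.99 for hairpin 2 minus hairpin 1. Each of the 4 numbers thus had the same order of groups. Fitted within the libraries of lower total alone (replicates 1 and 2), the 3 differences were -0.49, 0.56 and -1.05, and within replicates 3 and 4 they were -0.47, 0.60 and -1.07. These values chose the gene and carry no test.

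Of the Nfe2l2 variance in log2 CPM over 12 libraries, 2.02% lay between replicate numbers, 96.6% between groups and 1.36% in the rest. Nfe2l2 was chosen because its groups differ, so that a high share between groups came with the choice. The medians over all genes tested were 74.6%, 8.27% and 12.8%. Mafk was the member nearest to Nfe2l2 in this, with 12.6% between replicate numbers and 63.7% between groups, followed by Keap1 with 54.6% and 42.9%. For the other 6 members 76% to 92.6% lay between replicate numbers and 1.94% to 13.5% between groups. Most members therefore differed more from one replicate number to the next than between hairpins, and the tests that follow were made with the replicate number as a term.

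**Figure D1:**
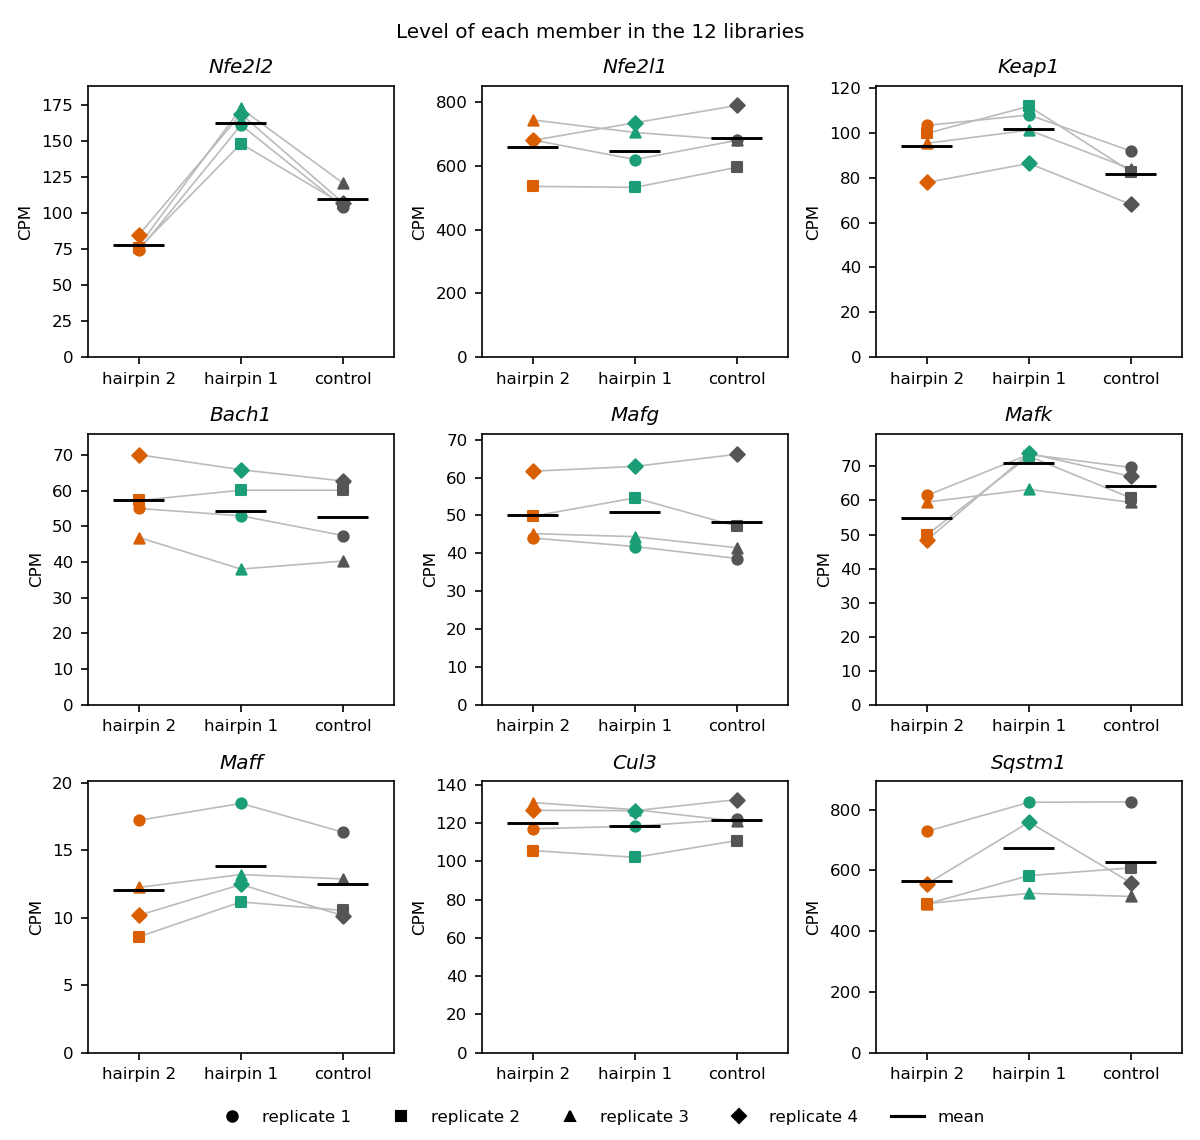
Level of the 9 genes in CPM (vertical axis, from 0) in hairpin 2, hairpin 1 and control libraries, with replicate numbers as marker shapes joined by grey lines and group means as black bars. The Nfe2l2 groups do not overlap (74.3 to 85.0, 148 to 173 and 105 to 121 CPM), and for most other genes the replicate numbers spread more widely than the groups.

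Of the 8 members tested, Keap1 alone passed against control with each hairpin, and it was higher with each. Keap1 (Gene 50868; chr9:21229730-21239361, minus strand) had 103, 99.8, 95.4 and 77.9 CPM in hairpin 2 replicates 1 to 4, and 108, 112, 101 and 86.4 CPM in hairpin 1 replicates 1 to 4. Control replicates 1 to 4 had 91.9, 82.7, 83.9 and 68.1 CPM. Replicate 4 was the lowest of each group, the groups overlapped, and within each replicate number both hairpin libraries stood above control and hairpin 1 stood highest.

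Keap1 rose by 0.20 on the log2 scale with hairpin 2 (SE 0.047, adjusted p = 0.0344) and by 0.32 with hairpin 1 (SE 0.048, adjusted p = 0.0199), in edgeR's test. It was the 1 of 8 members other than Nfe2l2 that passed in each comparison, where 5.76% of all genes tested passed (2.83% upward) for hairpin 2 against control and 0.728% for hairpin 1 against control. Between hairpin 2 and hairpin 1 it did not pass (-0.12, SE 0.047, adjusted p = 0.207). Keap1 thus stood above control with both hairpins while Nfe2l2 lay on opposite sides of control. The hairpin 2 call was lost when any 1 of the 12 libraries was left out (adjusted p 0.0537 to 0.0993), and the hairpin 1 call was lost without any hairpin 1 library or without control replicate 1, 2 or 4 (0.0502 to 0.106). With edgeR and no term for the replicate number, 0 of the 8 members passed in any comparison, and 1 of 8 had an unadjusted p under 0.05 in each.

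Cul3, the scaffold of the ligase, did not pass the test in any comparison and had small differences. It had 117, 106, 131 and 127 CPM in hairpin 2 replicates 1 to 4, 118, 102, 127 and 127 CPM in hairpin 1 replicates 1 to 4, and 122, 111, 121 and 132 CPM in control replicates 1 to 4. The groups overlapped throughout. The log2 fold changes were -0.02 for hairpin 2 and -0.04 for hairpin 1 against control (SE 0.049 each, adjusted p = 0.849 and 0.801), and 0.02 between hairpin 2 and hairpin 1 (SE 0.049, adjusted p = 0.864).

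Sqstm1, whose product p62 binds KEAP1 and carries it to autophagy, and which is itself known as an NRF2 target, varied more. It had 729, 490, 491 and 556 CPM in hairpin 2 replicates 1 to 4, 824, 583, 525 and 759 CPM in hairpin 1 replicates 1 to 4, and 826, 608, 514 and 559 CPM in control replicates 1 to 4. Replicate 1 was highest in each group, and hairpin 1 replicate 4 stood above the hairpin 2 and control libraries of its number. Sqstm1 was lower with hairpin 2 than with hairpin 1 in 4 of 4 replicate numbers, by -0.25 on the log2 scale, and this did not pass the test (SE 0.082, adjusted p = 0.131). Against control it did not pass with hairpin 2 (-0.15, SE 0.082, adjusted p = 0.329) or hairpin 1 (0.10, SE 0.082, adjusted p = 0.665).

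Among the small MAF genes, whose products pair with NRF2 and with BACH1, Mafk differed between the hairpins. Mafk (Gene 17135; chr5:139791513-139802653, plus strand) had 61.5, 49.9, 59.5 and 48.4 CPM in hairpin 2 replicates 1 to 4, against 73.5, 73.0, 63.2 and 73.8 CPM in hairpin 1 replicates 1 to 4. Control replicates 1 to 4 lay between or beside them at 69.7, 60.7, 59.4 and 67.1 CPM. No hairpin 2 library reached the lowest hairpin 1 library, and control overlapped both. The group means had the same order as those of Nfe2l2, with hairpin 1 highest and hairpin 2 lowest.

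Mafk was lower with hairpin 2 than with hairpin 1 by a log2 fold change of -0.37 (SE 0.084, adjusted p = 0.0415), in 4 of 4 replicate numbers. It was the 1 of 8 members other than Nfe2l2 that passed in this comparison, where 3.44% of all genes tested did. Against control, the changes of -0.23 with hairpin 2 (SE 0.084, adjusted p = 0.141) and 0.14 with hairpin 1 (SE 0.084, adjusted p = 0.528) did not pass. The call between hairpins held without hairpin 2 replicate 3, control replicate 3 or control replicate 4, and was lost without any of the 9 other libraries (adjusted p 0.0534 to 0.149). Left out in turn, hairpin 2 replicate 3 gave a Mafk call for hairpin 2 against control (-0.32, adjusted p = 0.0351).

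Maff, the least abundant of the small MAF genes, had 17.2, 8.59, 12.3 and 10.2 CPM in hairpin 2 replicates 1 to 4, 18.5, 11.2, 13.2 and 12.5 CPM in hairpin 1 replicates 1 to 4, and 16.4, 10.5, 12.9 and 10.2 CPM in control replicates 1 to 4. Hairpin 1 was the highest library of each replicate number, but the groups overlapped. Its log2 fold change between hairpin 2 and hairpin 1 was -0.22 (SE 0.089, adjusted p = 0.21). It did not pass against control with hairpin 2 (-0.07, adjusted p = 0.698) or with hairpin 1 (0.15, adjusted p = 0.543).

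Mafg showed no such order. It had 44.0, 49.8, 45.2 and 61.7 CPM in hairpin 2 replicates 1 to 4, 41.8, 54.6, 44.4 and 63.0 CPM in hairpin 1 replicates 1 to 4, and 38.6, 47.1, 41.5 and 66.2 CPM in control replicates 1 to 4. Replicate 4 was highest in all groups. The log2 fold changes were 0.07 for hairpin 2 and 0.09 for hairpin 1 against control and -0.02 between hairpin 2 and hairpin 1 (SE 0.061 each, adjusted p = 0.541, 0.616 and 0.916).

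Bach1, the repressor that competes with NRF2 for small MAF partners, had 55.0, 57.2, 46.9 and 70.0 CPM in hairpin 2 replicates 1 to 4. Its levels were 52.9, 60.1, 38.0 and 65.8 CPM in hairpin 1 replicates 1 to 4, and 47.4, 60.1, 40.3 and 62.7 CPM in control replicates 1 to 4. The groups overlapped, with replicate 4 highest and replicate 3 lowest in each. None of the log2 fold changes passed the test, at 0.13 for hairpin 2 and 0.04 for hairpin 1 against control and 0.09 between hairpin 2 and hairpin 1 (adjusted p = 0.274, 0.875 and 0.465).

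Nfe2l1, the relative of Nfe2l2, had 681, 535, 744 and 680 CPM in hairpin 2 replicates 1 to 4. It had 620, 532, 705 and 735 CPM in hairpin 1 replicates 1 to 4, and 680, 595, 681 and 789 CPM in control replicates 1 to 4. Replicate 2 was lowest in each group and the groups overlapped. Its log2 fold changes were -0.06 for hairpin 2 and -0.09 for hairpin 1 against control, and 0.03 between hairpin 2 and hairpin 1 (adjusted p = 0.638, 0.64 and 0.85), so that no change of this factor passed the test in any of the comparisons.

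**Figure D2:**
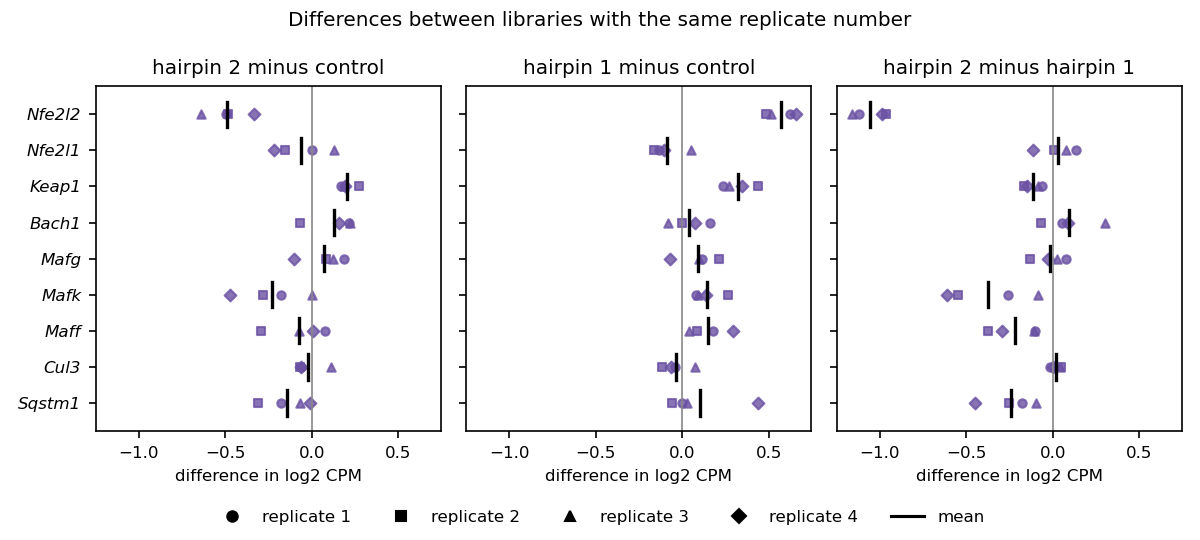
Difference in log2 CPM between libraries with the same replicate number (horizontal axis) for hairpin 2 minus control, hairpin 1 minus control and hairpin 2 minus hairpin 1, with 4 points and their mean (black bar) for each of the 9 genes. Nfe2l2 lies between -0.64 and -0.34, between 0.48 and 0.66 and between -1.16 and -0.97, whereas Keap1 is above 0 against control with both hairpins and Mafk is below 0 in all 4 pairs of hairpin 2 minus hairpin 1.

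Some member exons overlap other annotated genes, and the strand setting of the counting is not given in the sources used here, so reads of such genes may have been shared. In the GENCODE M21 annotation, 17.3% of the Sqstm1 exon bases lay under Mrnip on the opposite strand, 10.9% of those of Keap1 under the antisense gene Gm16754, 4.33% of those of Mafk under Tmem184a on the opposite strand and 2.21% of those of Mafg under Sirt7 on the same strand. No exon base of Nfe2l2, Nfe2l1, Bach1, Maff or Cul3 was shared in this way.

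Levels of different genes were compared as CPM per kilobase of annotated exon. With hairpin 2, Sqstm1 was highest (169 ± 33.6), followed by Nfe2l1 (121 ± 16.2), Cul3 (24.6 ± 2.30), Nfe2l2 (20.6 ± 1.26), Keap1 (20.1 ± 2.41), Mafk (14.1 ± 1.70), Bach1 (9.27 ± 1.55), Mafg (8.94 ± 1.44) and Maff (4.65 ± 1.45; CPM per kilobase, SD, n = 4). With hairpin 1, Nfe2l2 stood at 42.9 ± 2.85 CPM per kilobase, clear of Cul3 at 24.3 ± 2.39 CPM per kilobase. In control, Nfe2l2 was at 28.9 ± 1.99 CPM per kilobase and Cul3 at 24.9 ± 1.80 CPM per kilobase. The libraries of Nfe2l2 and Cul3 did not overlap in control (27.6 to 31.9 and 22.8 to 27.2 CPM per kilobase) or with hairpin 1, and those of Nfe2l2 overlapped Cul3 and Keap1 with hairpin 2.

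In all groups Sqstm1 and Nfe2l1 stood far above the rest, and their libraries did not overlap within a group. Mafg and Bach1 overlapped in each group, as did Cul3 and Keap1 with both hairpins, Keap1 and Mafk with hairpin 1 and in control, and Bach1 and Maff with hairpin 1, whereas the Keap1 libraries lay above those of Mafk with hairpin 2. Among the small MAF genes Mafk was highest per length and Maff lowest in each group. By mean level Nfe2l2 was the fourth in this order with hairpin 2 and the third with hairpin 1 and in control.

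**Figure D3:**
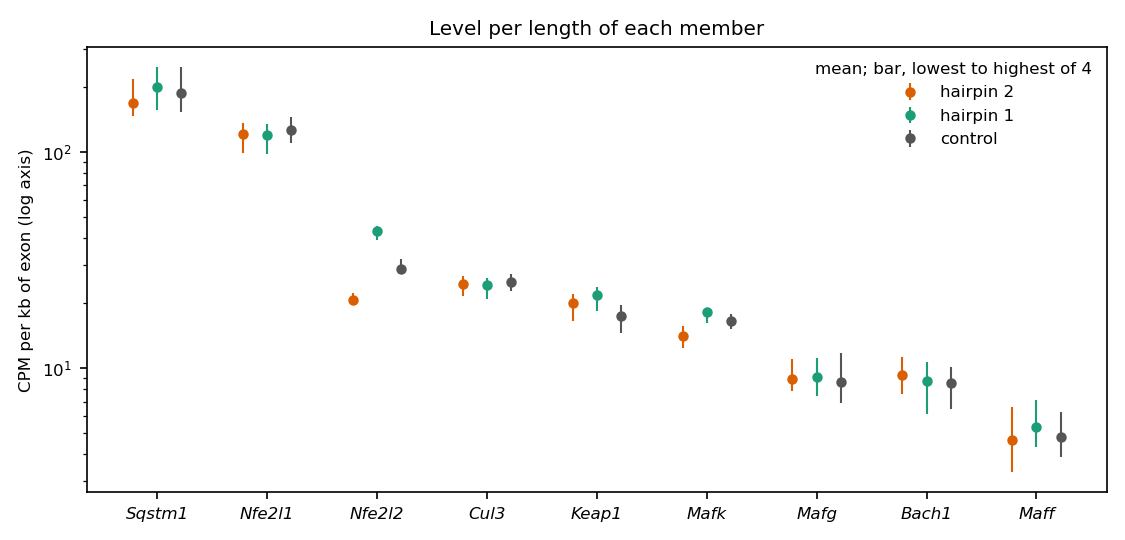
Level per length of the 9 genes in CPM per kilobase of exon (log axis), as group means with bars from the lowest to the highest of 4 libraries, for hairpin 2, hairpin 1 and control. Nfe2l2 moves between groups (20.6, 42.9 and 28.9) while Sqstm1 and Nfe2l1 stay above 97 and Maff below 8 CPM per kilobase.

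All 47 listed target genes of NRF2 were tested. Those that passed with hairpin 2 against control were lower, and those that passed with hairpin 1 against control were higher. Only Gclm and Gsta3 passed in both of these comparisons. Nqo1, Mgst1, Idh1 and Me1, which passed with hairpin 2, also had mean CPM below control with hairpin 1. For Me1 the gap was small (266 CPM with hairpin 1, 271 CPM in control). The fitted values of 41 of 47 targets were positive with hairpin 1. With hairpin 2 against control, 14 fell and 0 rose, 33 did not pass, and the median log2 fold change was -0.27, where 2.93% of all genes tested fell and their median was 0.00. With hairpin 1 against control, 3 rose and 0 fell, 44 did not pass, and the median was 0.25, where 0.382% of all genes tested rose. With hairpin 2 against hairpin 1, 21 were lower and 0 higher, 26 did not pass, and the median was -0.48, where 1.87% of all genes tested were lower and 1.57% higher. The first pair of comparisons share the control libraries. The last comparison is the difference of that pair in the same fit, so its calls are not independent of theirs. Earlier results of these data on such genes were known when the list was drawn up. With no term for the replicate number, edgeR called 0 of the 47 in any comparison, and unadjusted p was under 0.05 for 3 with hairpin 2 against control, 0 with hairpin 1 against control and 15 between hairpin 2 and hairpin 1.

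The 3 targets that rose with hairpin 1 were Gsta3, a glutathione transferase, Gclm, the modifier subunit of the enzyme that starts glutathione synthesis, and Srxn1, which repairs oxidized peroxiredoxins. Gsta3 had 35.4, 25.4, 16 and 16 CPM in hairpin 2 replicates 1 to 4, 111, 67.9, 50.6 and 78.9 CPM in hairpin 1 replicates 1 to 4, and 71.9, 45.3, 28.8 and 40.1 CPM in control replicates 1 to 4. Hairpin 2 and hairpin 1 libraries did not overlap. Its log2 fold change was -0.999 with hairpin 2 (SE 0.115, adjusted p = 0.00249) and 0.76 with hairpin 1 (SE 0.113, adjusted p = 0.02) against control, and -1.76 between hairpin 2 and hairpin 1 (SE 0.117, adjusted p = 0.000142).

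Gclm averaged 72.7 CPM with hairpin 2, 128 CPM with hairpin 1 and 96.0 CPM in control. It fell by 0.38 on the log2 scale with hairpin 2 (adjusted p = 0.0162) and rose by 0.42 with hairpin 1 (adjusted p = 0.0277) against control. Srxn1 rose by 0.66 with hairpin 1 (adjusted p = 0.0106), and its -0.14 with hairpin 2 did not pass (adjusted p = 0.384). The hairpin 1 calls of Gsta3 and Gclm were lost without any hairpin 1 library or without control replicate 1, 3 or 4 (adjusted p 0.0514 to 0.137), and the Srxn1 call when control replicate 1 or hairpin 1 replicate 1, 2 or 4 was left out (0.0561 to 0.0638). Leaving out control replicate 1 or hairpin 2 replicate 1 or 4 ended the Gclm call with hairpin 2 (0.0538 to 0.0612).

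Other targets differed between hairpin 2 and hairpin 1 by larger or smaller amounts. Gstm1, also a glutathione transferase, was lower with hairpin 2 by a log2 fold change of -1.18, Gstp1 of the same superfamily by -1.12, and the aldehyde oxidase gene Aox1 by -1.06 (adjusted p = 0.000156, 0.000579 and 0.000156). G6pdx and Pgd, enzymes of the NADPH-producing pentose phosphate pathway, were lower by -0.83 and -0.56, and the heme transporter gene Slc48a1 by -0.74 (adjusted p = 0.000323, 0.00151 and 0.000838). These 6 genes also fell with hairpin 2 against control, by 0.77, 0.69, 0.72, 0.59, 0.38 and 0.46 on the log2 scale (adjusted p = 0.00201, 0.00558, 0.00193, 0.00211, 0.00864 and 0.00674), and did not pass with hairpin 1 against control (0.41, 0.43, 0.34, 0.24, 0.19 and 0.28). Reads of Gstp1 and Gstm1 may be shared with near copies, since 33.7% and 18.9% of their 50-base stretches occurred in other genes.

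Of the best known targets, Txnrd1, a thioredoxin reductase, was lower with hairpin 2 than with hairpin 1 by -0.52 (adjusted p = 0.00208), Hmox1, heme oxygenase, by -0.80 (0.00865) and Gclc, the catalytic partner of Gclm, by -0.54 (0.0184). Slc7a11, the cystine importer, was lower by -0.71 (adjusted p = 0.0383), and Nqo1, a quinone reductase, by -0.56 (0.0154). Nqo1 fell with hairpin 2 against control (-0.63, adjusted p = 0.00801) and was at -0.07 with hairpin 1 (adjusted p = 0.839), lower in 4 of 4 replicate numbers, so that it lay on the same side of control with both hairpins. The calls between hairpins were lost for Slc7a11 without any hairpin 2 library, hairpin 1 replicate 1, 2 or 4 or control replicate 1, for Nqo1 without hairpin 2 replicate 4 or hairpin 1 replicate 1, 2 or 4, and for Gclc without replicate 1 of hairpin 2 or of hairpin 1 (highest adjusted p 0.133, 0.0656 and 0.0693). The element core was found in the promoter windows of 13 of 39 targets that had one (33.3%), beside 14.0% of all genes with a window. Of the targets named above, Gclm, Gsta3, Srxn1, Txnrd1, G6pdx, Pgd, Mgst1 and Me1 held it, and Gstm1, Gstp1, Aox1, Nqo1, Slc7a11 and Idh1 did not. Hmox1, Gclc and Slc48a1 had no window to search.

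**Figure D4:**
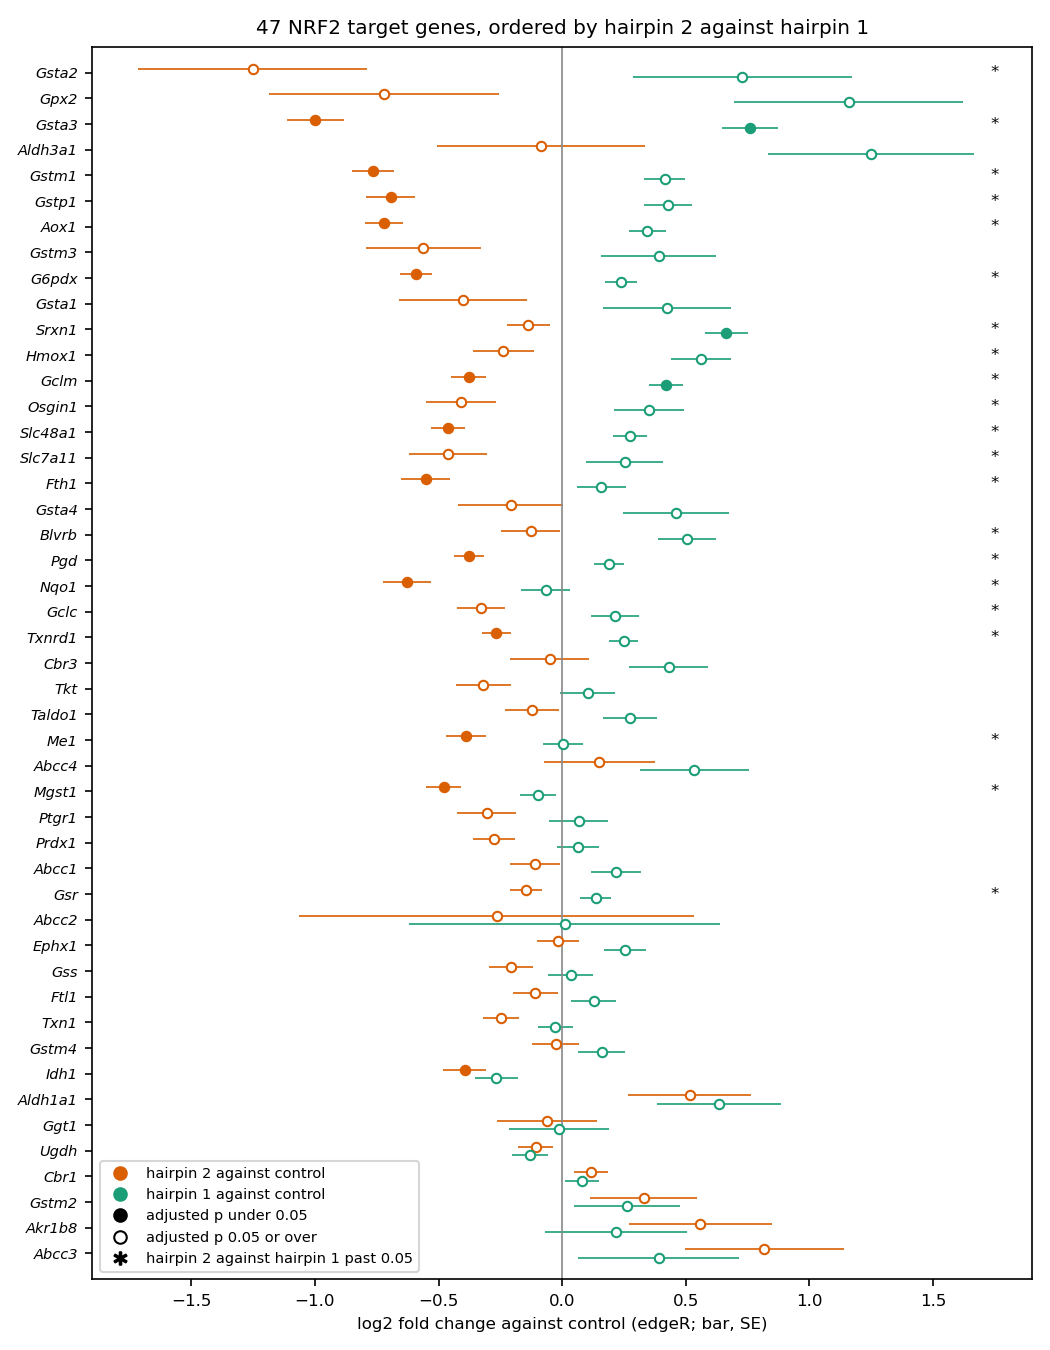
Log2 fold change against control (horizontal axis, bars SE) of 47 NRF2 target genes with hairpin 2 and hairpin 1, ordered by hairpin 2 against hairpin 1, with filled points for adjusted p under 0.05 and stars for targets that passed between the hairpins. The values of 41 of 47 targets were negative with hairpin 2, and those of 41 of 47 were positive with hairpin 1.

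Other lists of the pathway had fewer calls. Of all 17025 genes tested, 3841 had an unadjusted p under 0.05 for hairpin 2 against control. The numbers were 2176 for hairpin 1 against control and 3414 for hairpin 2 against hairpin 1. In the same order, DESeq2 called 1851, 596 and 1405 genes. The unadjusted and DESeq2 counts of the lists are to be read beside these. Of 35 further regulators of NRF2 and NRF1, edgeR called 0 in any comparison (5, 6 and 7 at an unadjusted p under 0.05 and 1, 1 and 3 with DESeq2, for hairpin 2 against control, hairpin 1 against control and hairpin 2 against hairpin 1), and Sesn1, Gsk3b and Nedd8, the members of smallest p between hairpin 2 and hairpin 1, had log2 fold changes of 0.31, -0.19 and -0.22 (adjusted p = 0.0757, 0.076 and 0.0961). Of 32 proteasome genes, which NRF1 is known to control, edgeR called 0 in any comparison (7, 1 and 3 at an unadjusted p under 0.05 and 1, 0 and 0 with DESeq2, in the order just given), with a median of -0.11 for hairpin 2 against control (29 of 32 negative), -0.01 for hairpin 1 against control and -0.09 for hairpin 2 against hairpin 1. Psmb5, Psma2 and Psmd8 had -0.19, -0.15 and -0.13 between hairpin 2 and hairpin 1 (adjusted p = 0.174, 0.207 and 0.209).

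Of 17 other leucine zipper genes tested, 1 (5.88%) passed for hairpin 2 against control, Maf, a large MAF factor (0.90, adjusted p = 0.0168), beside 5.76% of all genes tested. Their median log2 fold change in that comparison was 0.26, with 13 of 17 positive. For hairpin 1 against control 1 of 17 passed, Jdp2 (0.39, adjusted p = 0.0411), beside 0.728% of all genes tested (0.382% upward). The median there was -0.01, with 8 of 17 positive. Between hairpin 2 and hairpin 1 edgeR called 0, with a median of 0.16 and 12 of 17 positive, and in these 3 comparisons 8, 3 and 6 were under 0.05 in unadjusted p and DESeq2 called 5, 2 and 3. Between hairpin 2 and hairpin 1 Bach2, Fos and Fosb had 0.44, 0.66 and 0.83 (adjusted p = 0.0512, 0.0637 and 0.0651). Of 24 other CUL3 adaptors, Rhobtb3 rose by 0.33 and Klhl25 fell by 0.35 with hairpin 2 against control (adjusted p = 0.0289 and 0.0098), which is 8.33% of the list beside 5.76% of all genes tested. In the other comparisons edgeR called 0 of them. Over the 3 comparisons 5, 5 and 6 were under 0.05 in unadjusted p and DESeq2 called 3, 3 and 2, and Rhobtb3, Rhobtb1 and Klhl8 had 0.28, -0.47 and 0.25 between hairpin 2 and hairpin 1 (adjusted p = 0.0677, 0.098 and 0.21). Of 20 selective autophagy genes, Ulk1, a starting kinase, rose by 0.45 and Map1lc3b and Atg12 fell by 0.22 and 0.22 with hairpin 2 against control (adjusted p = 0.0146, 0.0461 and 0.035), which is 15% of the list beside 5.76% of all genes tested. In the other comparisons edgeR called 0, and over the 3 comparisons 6, 4 and 3 were under 0.05 in unadjusted p and DESeq2 called 4, 0 and 0. Optn, a receptor of the same kind as p62, and Gabarapl1 had -0.22 and -0.18 between hairpin 2 and hairpin 1 (adjusted p = 0.11 and 0.132). Maf, Jdp2, Klhl25, Ulk1 and Atg12 are named because so few members of their lists passed, and were picked after their values were seen. With each of the 12 libraries left out in turn, the calls of Maf and Klhl25 held every time, while those of Ulk1, Rhobtb3, Atg12 and Map1lc3b with hairpin 2 were lost 3, 6, 10 and 11 times and that of Jdp2 with hairpin 1 was lost 10 times.

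Some genes listed as markers of other cell types moved with hairpin 2, and which cells held their RNA was not tested. Against control, 6 of 10 pericyte and smooth muscle markers and 2 of 10 fibroblast markers rose with hairpin 2, and 1 of 10 epithelial markers, Epcam, fell by 0.34 (adjusted p = 0.0151), where 2.83% of all genes tested rose and 2.93% fell. The 6 were Acta2, Cnn1, Myh11, Tagln, Pdgfrb and Cspg4. Rgs5, Mcam and Des did not pass edgeR's test (1.15, 0.61 and 0.44, adjusted p = 0.0794, 0.106 and 0.687), nor did Notch3 (-0.14, adjusted p = 0.266). With hairpin 1 against control edgeR called 0 genes of these lists. Unadjusted p was under 0.05 for 7 pericyte and smooth muscle, 3 fibroblast and 4 epithelial markers, beside 2176 of all 17025 genes tested. DESeq2 made 1 call in each list, beside 596 over all genes. The pericyte and smooth muscle markers leaned upward with hairpin 1 too, with 8 of 10 positive and a median log2 fold change of 0.48. With hairpin 2 against control 9 of 10 were positive, with a median of 0.94. Between hairpin 2 and hairpin 1 edgeR called 0 of these 10, with a median of 0.60. Between hairpin 2 and hairpin 1 the fibroblast marker Dcn, 1 of 10, was higher by 0.91 (edgeR, adjusted p = 0.0222), where 1.57% of all genes tested were higher. The Dcn call between hairpins was lost without hairpin 2 replicate 1 or 4 or hairpin 1 replicate 1 or 3 (adjusted p 0.0552 to 0.0848). Against control, leaving out a library ended the hairpin 2 call of Epcam for hairpin 2 replicate 4 or control replicate 3 (0.0504 each), of Acta2 for hairpin 2 replicate 4 or control replicate 1, 3 or 4 (0.0537 to 0.0704), of Col14a1 for hairpin 2 replicate 2 or 4 or control replicate 1, 2 or 4 (0.0553 to 0.0942) and of Cspg4 for each library but hairpin 2 replicate 2 and control replicate 2 (0.0618 to 0.129). The calls of Pdgfrb, Myh11, Tagln, Cnn1 and Dcn against control held each time. Summed pericyte and smooth muscle markers were 491 to 1044 CPM with hairpin 2, 485 to 894 CPM with hairpin 1 and 355 to 618 CPM in control, and summed fibroblast markers were 524 to 8532 CPM with hairpin 2, 272 to 4792 CPM with hairpin 1 and 233 to 3902 CPM in control. Of 14 macrophage and leukocyte markers 0 passed, with sums of 180 to 294 CPM with hairpin 2, 148 to 267 CPM with hairpin 1 and 165 to 377 CPM in control, and Adgre1, C1qa, C1qb, C1qc, Tyrobp, Cd3e and Ptprc were at 0 in 1 to 6 libraries. Endothelial markers summed to 3.89 to 11.98 CPM with hairpin 2, 3.40 to 7.31 CPM with hairpin 1 and 3.58 to 9.53 CPM in control, 0 of 8 tested passed, and Cldn5, Emcn and Cdh5 were at 0 in some libraries. The part of these markers in the values of Nfe2l2, Keap1, Mafk and the targets was not tested.

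The genes most like Nfe2l2 over the 12 libraries were found by Pearson correlation of log2 CPM after the mean of each replicate number was taken out. The ranking covered 11228 other genes with a mean of at least 5 CPM, without unnamed loci (Gm, Rik, LOC or clone names). They were Pcbp1 (r = 0.986), an RNA-binding protein gene, Snx15 (0.985), a sorting nexin gene, Hnrnpf (0.979), which encodes a splicing regulator, Npc1 (0.974), a lysosomal cholesterol transporter gene, and M6pr (0.974), a mannose 6-phosphate receptor gene. The most opposed were Reep3 (-0.988), Nek4 (-0.972), Pgm2l1 (-0.971), Nav2 (-0.965) and Tmprss4 (-0.965). Without taking out the replicate number, r was 0.357 for Pcbp1 and 0.037 for Hnrnpf, but 0.956 for Snx15 and 0.908 for Npc1. The libraries share their groups and replicate numbers, so these values describe the pattern alone, and Nfe2l2 values set the ranking. A high r does not mean a large change. In the order hairpin 2 against control, hairpin 1 against control and hairpin 2 against hairpin 1, Pcbp1 had log2 fold changes of -0.05, 0.07 and -0.12. Reep3 had 0.11, -0.18 and 0.29 in that order, and Tmprss4 had 0.77, -0.60 and 1.37.

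Among the members, on the same scale, r with Nfe2l2 was 0.781 for Maff, 0.78 for Mafk and 0.745 for Sqstm1. It was 0.374 for Keap1, 0.041 for Mafg, -0.252 for Nfe2l1, -0.259 for Cul3 and -0.438 for Bach1.

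**Figure D5:**
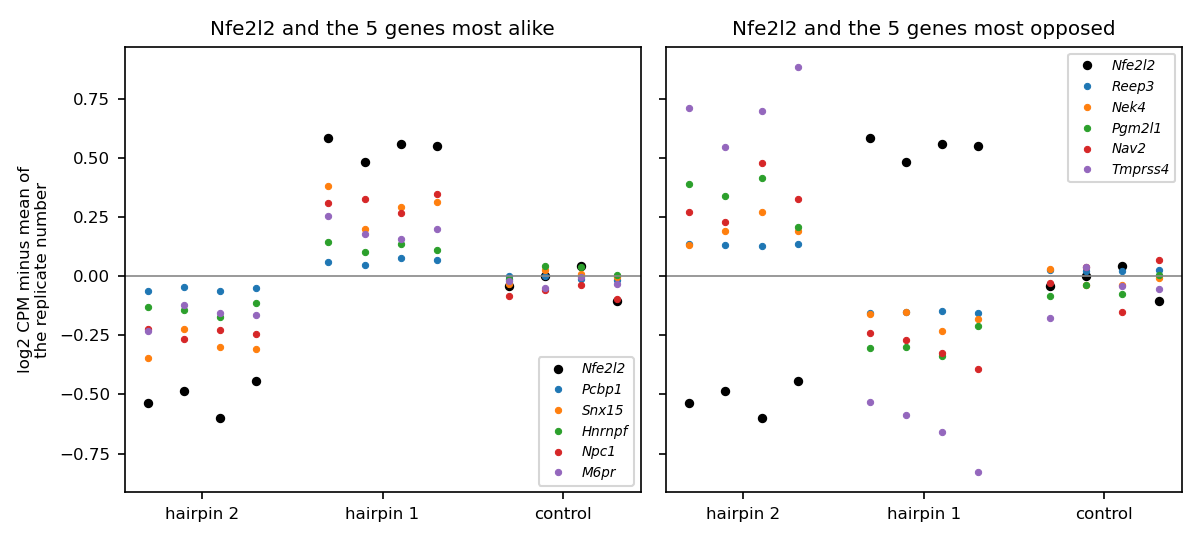
Log2 CPM minus the mean of the replicate number (vertical axis) of Nfe2l2 (black) and, in colour, the 5 genes most alike and the 5 most opposed, in the 4 libraries each of hairpin 2, hairpin 1 and control, replicates 1 to 4 from left to right. The like genes run the same way over a smaller range for Pcbp1 than for Snx15, and Tmprss4 (mean 34.3 CPM with hairpin 2, 13.5 CPM with hairpin 1 and 20.6 CPM in control) spans the widest range of the opposed genes.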

How the data were processed

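RNA from 12 organoid libraries was selected with oligo-dT and made into libraries with a NEBNext Ultra kit, per the labels' protocols. The authors deposited whole-number read counts for each gene, not normalized. FastQC 0.74, Trimmomatic 0.39, DESeq2 1.34.0 and the build mm10 are named, with no role, per the submitters' processing notes; an aligner, gene models and a strand setting are not stated there. A table row without a symbol was kept by its gene number.

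The members and gene lists, and the choice of a model with the replicate number, were made with earlier results of these data known. Counts were filtered with filterByExpr by group (17025 genes kept, 8836 left out, at least 99.97% of counts kept), scaled with edgeR's TMM factors and tested with edgeR 4.0.16 (glmQLFit, glmQLFTest; R 4.3.3) over 12 libraries. Adjustment was by Benjamini-Hochberg over all genes, with a threshold of 0.05. CPM values use the same scaling, and log2 CPM a prior count of 2. Same-numbered libraries of different groups deviated together (r 0.855 to 0.916 for 12 pairs; other pairs -0.807 to 0.727), and each of 12 libraries correlated best with its own number; the pairing rests on the titles and these values, not from a stated animal or day. Libraries of a group differed by more than sampling noise (chi-square per degree of freedom 54.0 to 605).

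Named genes were the 9 members, Cldn7, 7 well-known targets, the 8 targets and 3 genes of each other list with the smallest p between hairpin 2 and hairpin 1, and the 5 genes most like and 5 most unlike Nfe2l2. Positions and exon lengths are from GENCODE M21 (GRCm38) and promoters from RefSeq (GRCm38.p6). The alternatives were no replicate number, DESeq2 1.42.0, size factors in place of TMM, no filter, the compared groups alone, replicates 1 and 2 or 3 and 4 alone, and each library left out.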

Additional observations from a re-analysis of the deposited data

Results flagged for a closer look

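In groups of 4 libraries, a library was looked at again where its gap to the nearest other, divided by the whole range, passed 0.829. Of 27 groups of member values 2 did, and chance gives about 1 in 20 groups. Control replicate 3 had 121 CPM of Nfe2l2, against 105 to 107 CPM in the other control libraries, a gap of 0.839 of the range, and hairpin 1 replicate 3 had 63.2 CPM of Mafk, against 73.0 to 73.8 CPM in the other hairpin 1 libraries, a gap of 0.922 of the range. The hairpins also differed from each other in their effect on 2 members. For Nfe2l2 the log2 fold change of hairpin 2 against hairpin 1 was -1.06, every library of hairpin 2 lying below and every library of hairpin 1 above the control libraries, and this difference was not tested because it chose the gene. For Mafk it was -0.37, which passed edgeR's test (adjusted p = 0.0415).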

How the results depend on the processing

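The Nfe2l2 differences kept their direction in every alternative, and leaving out each library gave -0.53 to -0.45 for hairpin 2 against control, 0.53 to 0.61 for hairpin 1 against control and -1.10 to -1.02 for hairpin 2 against hairpin 1. Without the replicate number as a block, edgeR called 1 gene in each comparison, and 0 members, 0 targets and 0 genes of the other pathway lists, and the cause was not tested. For hairpin 2 against control, 981 genes were called, against 1851 with DESeq2, 82 in replicates 1 and 2, 327 in replicates 3 and 4, 97 with the compared groups alone and 342 (without control replicate 3) to 1076 with a library left out. For hairpin 1 against control, 124 genes were called, against 596, 9, 1, 390 and 2 (without hairpin 1 replicate 1) to 344 in the same order. For hairpin 2 against hairpin 1, 585 genes were called, against 1405 with DESeq2, 84 in replicates 1 and 2, 42 in replicates 3 and 4 and 165 (without hairpin 1 replicate 3) to 672 with a library left out. The 1 member called in each comparison became 0 in either pair of replicates, 0 to 1 with a library left out, 0 with the compared groups alone for hairpin 2 against control and against hairpin 1, and 2 with DESeq2 for hairpin 2 against hairpin 1. The 14 targets of hairpin 2 against control became 9 in replicates 1 and 2, 3 in replicates 3 and 4, 5 with the compared groups alone and 9 to 16 with a library left out. The 3 of hairpin 1 against control became 11 with DESeq2, 5 with no filter, 0 in either pair of replicates, 9 with the compared groups alone and 0 to 8 with a library left out. The 21 of hairpin 2 against hairpin 1 became 4 in replicates 3 and 4 and 12 to 23 with a library left out. The other pathway lists had 6 calls for hairpin 2 against control (14 with DESeq2, 0 in either pair of replicates or with the compared groups alone, 2 to 6 with a library left out), 1 for hairpin 1 against control (6 with DESeq2, 0 in either pair of replicates, 3 with the compared groups alone, 0 to 3 with a library left out) and 0 between hairpins (8 with DESeq2, 2 with no filter, 2 with the compared groups alone, 0 to 2 with a library left out). Values that did not pass changed sign in replicates 1 and 2 for Bach1 between hairpins (-0.0143) and Sqstm1 with hairpin 1 (-0.0296), and in replicates 3 and 4 for Cul3 with hairpin 2 (0.0445) and hairpin 1 (0.0206), Mafg (5e-04) and Nfe2l1 (-0.0127) between hairpins and Srxn1 with hairpin 2 (0.0761). Leaving out a library also turned such values near 0, with ranges of -0.0602 to 0.0019 for Cul3 with hairpin 2 and, between hairpins, of -0.0069 to 0.0339 for Cul3, -0.0491 to 0.0194 for Mafg and -0.0115 to 0.0779 for Nfe2l1. Replicate pairs and left-out libraries hold fewer samples.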
